A study of Homo sapiens with 9 samples.

Results

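The 56 genes described here encode proteins of the lysosome: the soluble enzymes that digest its contents, the proteins of its limiting membrane, the subunits of the proton pump that acidifies it, and the MiT transcription factors that are known to drive such genes. They were chosen by gene symbol, with earlier results of these data known, and each of the 56 had a row among the 59648 gene rows of every count file. By role they fall into 9 proteases, 15 glycan hydrolases and sulfatases, 7 lipid hydrolases with their activators and progranulin, 9 membrane proteins, 8 subunits of the pump's cytosolic V1 sector, 5 of its membrane V0 sector and accessory subunits, and 3 MiT factors. RNA was sequenced from Kasumi-1, a human acute myeloid leukaemia line with the t(8;21) translocation, which fuses RUNX1 to RUNX1T1 and yields the AML1-ETO (AE) protein. The groups were 3 libraries each with shRNA against AE, shRNA against LYL1 and a control shRNA. The AE libraries are numbered 1 to 3 and the LYL1 libraries 538, 540 and 542. LYL1 is a basic helix-loop-helix factor of the AE-containing complex. All 9 libraries thus came from transduced, puromycin-selected cells of a single line, harvested on day 4 after 48 h of transduction and 48 h in 1 µg/mL puromycin. The labels say neither whether the AE or LYL1 numbers mark different hairpins nor whether libraries of a group are separate cultures. Each p-value thus rests on the spread among these libraries alone, which may be technical or include differences between hairpins.

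Lysosomes digest proteins, glycans and lipids with acid hydrolases that work at a pH kept low by the vacuolar H+-ATPase (V-ATPase). This rotary pump burns ATP in its V1 sector and moves protons through its V0 sector. The basic helix-loop-helix factors TFEB, TFE3 and MITF bind E-box motifs in the promoters of many of these genes and enter the nucleus when the kinase complex mTORC1, itself activated on the lysosomal surface, is inactive. Myeloid cells are rich in lysosomes, and macrophages in particular carry large amounts of cathepsins and lysosomal membrane proteins.

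Library totals ranged from 20103275 to 28039518 counts, and 14741 genes were tested. Of the 56 lysosomal genes, 52 were tested and 50 of those had at least 10 counts in every library. RUNX1T1, whose counts add the fusion to the normal gene, was at 114, 136 and 87.7 CPM (counts scaled by library total and by the trimmed mean of M-values, TMM) in AE knockdown, against 216, 223 and 212 CPM in control. The AE libraries were all below the control libraries (log2 fold change -0.94, edgeR adjusted p = 0.0082). RUNX1 was at 241, 232 and 199 CPM in AE knockdown, against 391, 383 and 367 CPM in control (log2 fold change -0.76, edgeR adjusted p = 0.0129). LYL1 was at 262, 200.0 and 172 CPM in AE knockdown and at 80.4, 98.4 and 43.9 CPM in LYL1 knockdown, against 172, 172 and 143 CPM in control. The LYL1 knockdown libraries lay below the control libraries, and the call on that fall depended on the tool (log2 fold change -1.13): it was not called by edgeR (adjusted p = 0.63) or limma-voom (adjusted p = 0.528) and was called by DESeq2 (adjusted p = 0.0202). The myeloblast markers KIT, CD33 and MPO were read in every library, and CD34 was low in control (10.5 to 12.5 CPM). CD33 was called higher in AE knockdown, at 117, 86.0 and 174 CPM against 33.6, 32.3 and 27.8 CPM in control (log2 fold change 2.01, edgeR adjusted p = 0.00129). KIT, MPO and CD34 were not called against control, with log2 fold changes of -0.27, 0.44 and -0.50. KIT was at 1271, 1133 and 434 CPM in AE knockdown. CD34 ran from 1.14 to 19.7 CPM there and from 9.98 to 53.2 CPM in LYL1 knockdown. The 5 erythroid markers summed to at most 0.192 CPM. In bulk RNA, fewer cells of a type and less RNA per cell cannot be told apart.

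Knockdown of AE was accompanied by higher RNA of a broad set of lysosomal genes. In AE knockdown against control, 18 of the 52 tested genes were called higher (34.6%) and 0 lower at a Benjamini-Hochberg adjusted p below 0.05 in edgeR's quasi-likelihood test, whereas 11.1% of all tested genes were called higher and 10.2% lower. At an unadjusted p below 0.05, 27 of the 52 were higher and 1 lower, where 19.8% of all genes were higher and 17% lower. DESeq2 called 21 higher and 1 lower, CTSH, beside 13.2% and 13.4% of all genes. Limma-voom called 13 higher, all among the 18, and 0 lower, beside 9.46% and 10.6% of all genes. GLB1, HEXA, ARSA, GRN and CD63 missed its threshold, with adjusted p of 0.0583, 0.0552, 0.0714, 0.0505 and 0.0503. The median log2 fold change of the 52 genes was 0.60, beside 0.048 over all genes tested, and 43 of them had a value above 0. The 3 AE libraries lay wholly above the 3 control libraries for 24 of the genes (46.2%, against 23.1% of all genes) and wholly below them for 3 (CTSB, CTSH and ATP6V1C1), where the share of all genes was 22.2%. The 18 called genes spanned log2 fold changes of 0.51 to 2.31, or 1.43-fold to 4.97-fold. They came from every role class except the MiT factors, and most densely from the lipid enzymes (5 of 7) and the V0 sector with its accessory subunits (3 of 4 tested). In the proteases (1 of 9, 11.1%) and the V1 sector (1 of 8, 12.5%) the share called higher was near that of all genes.

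**Figure D1:**
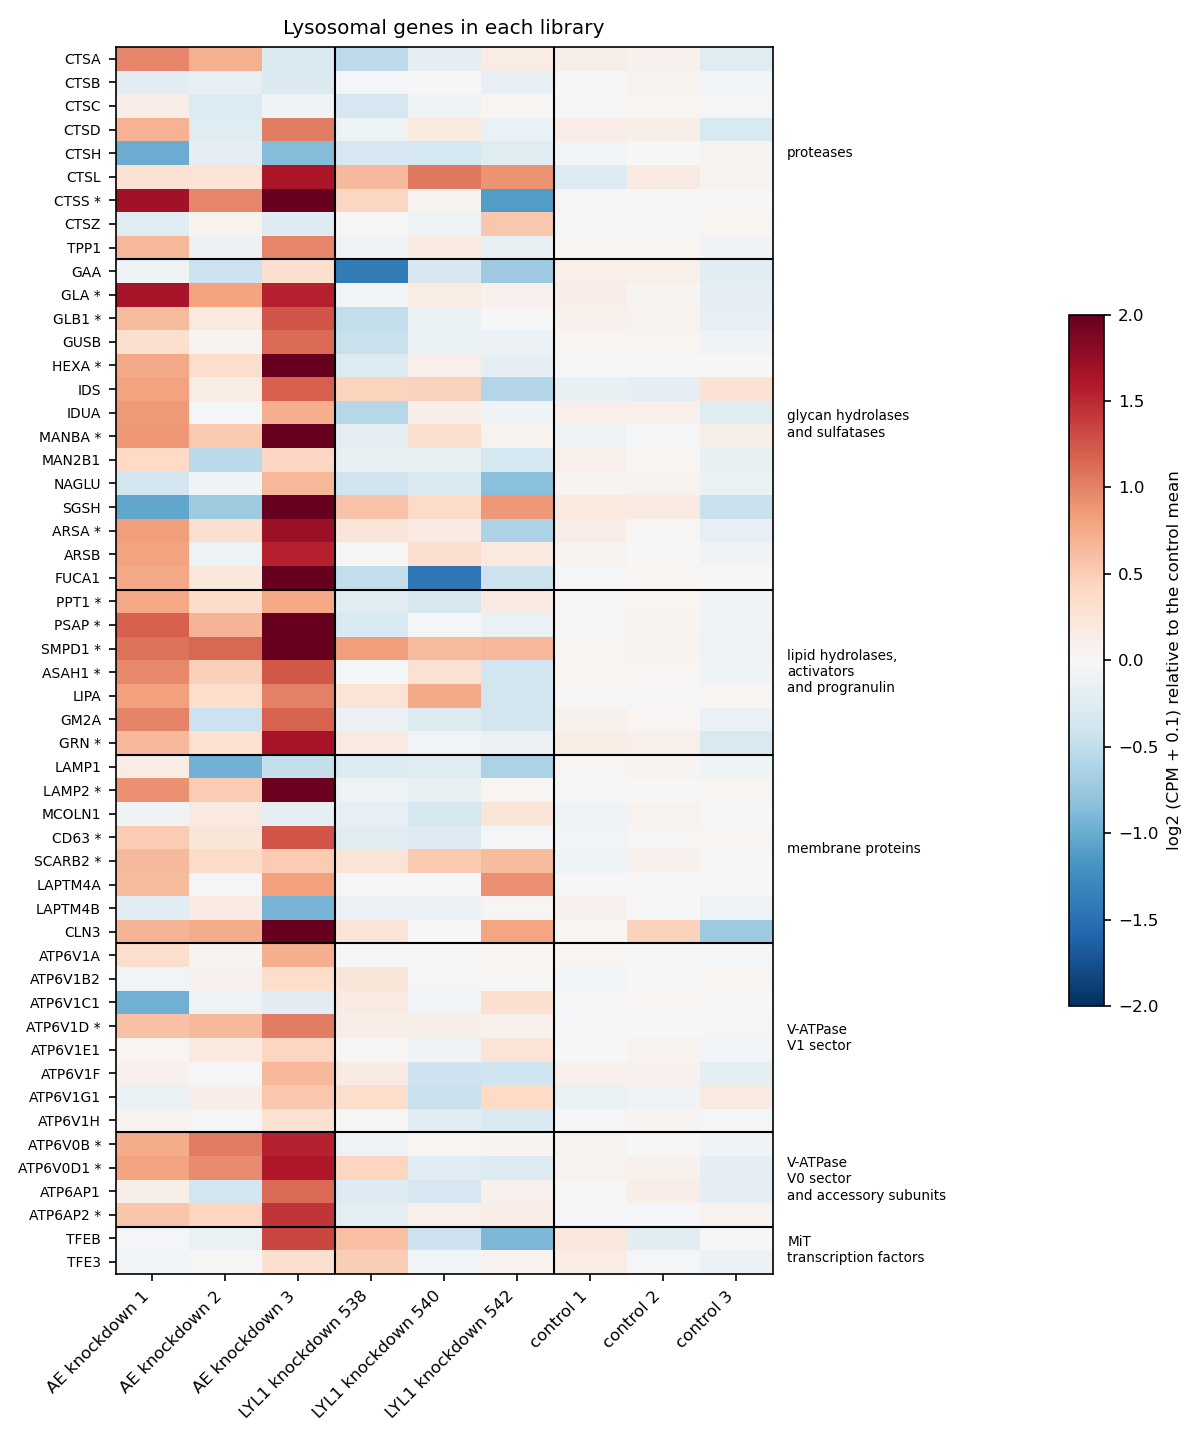
Each row is one of the 52 tested lysosomal genes and each column a library. Colour gives log2 (CPM + 0.1) relative to the control mean, cut at 2 in either direction, and an asterisk marks the 18 genes called higher in AE knockdown against control. Red is concentrated in the AE columns and deepest in AE knockdown 3, while the LYL1 columns are pale and mixed.

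The AE libraries did not share the rise equally. AE knockdown 3 was the highest of the AE libraries for 15 of the 18 called genes and for 39 of the 52 tested, against 40.2% of all tested genes, and AE knockdown 2 was the highest for 0 of the 18. Summed over the 56 genes, the level was 8390, 6463 and 11678 CPM in AE knockdown, 5239, 5555 and 5802 CPM in LYL1 knockdown and 6074, 6102 and 5628 CPM in control. All 3 AE sums thus stood above all 6 others, with AE knockdown 2 only narrowly so. Without PSAP, the most abundant of the genes in the AE libraries, the sums were 7258, 5667 and 9593 CPM in AE knockdown and 5571, 5586 and 5165 CPM in control. AE knockdown 3 was above 1 and 1 above 2 for 28 of the 52 tested genes, against 23.7% of all tested genes. Some other measures ordered the AE libraries in this way or in reverse, and others did not. RUNX1T1 was lowest in AE knockdown 3 and highest among the AE libraries in AE knockdown 2. RUNX1, at 241, 232 and 199 CPM in AE knockdown, was also lowest in AE knockdown 3 but highest in AE knockdown 1. MPO (32494, 16231 and 30552 CPM) and LYL1 (262, 200.0 and 172 CPM) were highest in AE knockdown 1. The 12 monocyte and macrophage markers summed to 76.0, 40.2 and 313 CPM in AE knockdown, 41.1, 42.1 and 35.3 CPM in LYL1 knockdown and 26.2, 25.0 and 23.9 CPM in control, and 5 of the 7 that could be tested (CSF1R, LYZ, ITGAM, TYROBP and FCER1G) were called higher in AE knockdown. The other tested markers, FCGR1A and CD86, were not called, with log2 fold changes of 0.081 and -1.15. Of the 5 that were not tested, AIF1, MRC1 and MARCO were at 0 in all 9 libraries, CD163 was at 0 in every AE and LYL1 library, and CD14 did not exceed 0.151 CPM. Mitochondrial ribosomal RNA took 0.603%, 0.521% and 1.21% of counts in AE knockdown and 0.483% to 0.549% in control. In LYL1 knockdown 538, 540 and 542 it took 0.507%, 0.609% and 0.79%, so that 540 and 542 exceeded AE knockdown 1 and 2. The part of these in the lysosomal values was not tested.

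**Figure D2:**
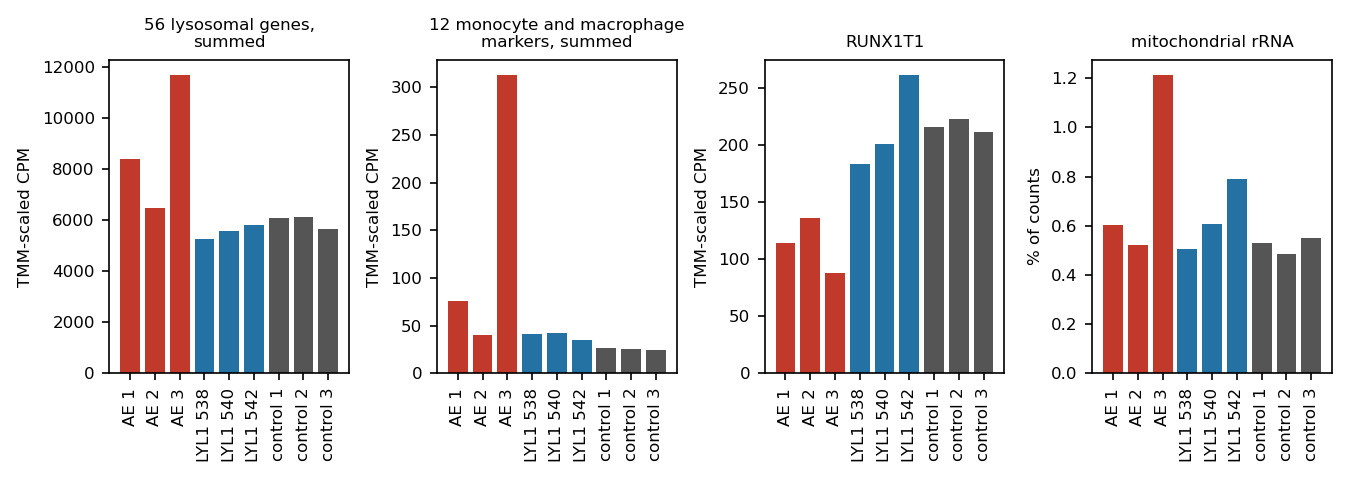
Bars give, for each of the 9 libraries, the summed level of the 56 lysosomal genes, the summed level of 12 monocyte and macrophage markers, the level of RUNX1T1 (all in TMM-scaled CPM) and the share of counts from mitochondrial ribosomal RNA (%). AE knockdown 3 has the tallest bar for the lysosomal genes (11678 CPM), the macrophage markers (313 CPM) and mitochondrial ribosomal RNA (1.21%) and the shortest for RUNX1T1 (87.7 CPM).

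With AE knockdown 3 left out, 15 of the genes were called higher, 14 of them among the 18, beside 7.33% of all genes, and the median log2 fold change over the 52 was 0.35. The values of the 18 then ran from 0.37 to 1.36, all still above 0, and 11 of them had shrunk by more than 1.5 times. GLB1, ARSA, GRN and CD63 lost their call (adjusted p of 0.115, 0.136, 0.0694 and 0.0627 in edgeR), and CTSA gained one. Without control 1, 2 or 3 the count fell to 6, 6 and 4, beside 2.98%, 2.5% and 2.6% of all genes called higher. Without AE knockdown 2 it was 30, beside 14.8% of all genes. GLA, PSAP, ATP6V1D and ATP6V0B were called in all 9 fits that left out a library.

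Among the glycan hydrolases and sulfatases, which strip sugars and sulfates from glycoproteins, glycolipids and glycosaminoglycans, 5 of the 14 tested were called higher and the median log2 fold change was 0.82. GLA, the alpha-galactosidase that clears globotriaosylceramide, had the smallest adjusted p of the 52 tested genes. It stood at 145, 80.7 and 135 CPM in AE knockdown, against 50.3, 47.7 and 39.9 CPM in control. Every AE library exceeded every control library, and the lowest was AE knockdown 2 (log2 fold change 1.39, SE 0.20, edgeR adjusted p = 0.00348). MANBA, the beta-mannosidase of glycoprotein breakdown, had 121, 95.4 and 288 CPM in AE knockdown and 61.4, 65.2 and 72.1 CPM in control. AE knockdown 3 held more than the other AE libraries together, and the log2 fold change of 1.34 (SE 0.35, edgeR adjusted p = 0.0234) fell to 0.69 without it. HEXA, the alpha subunit of beta-hexosaminidase, gave 70.3, 52.9 and 179 CPM in AE knockdown and 41.7, 41.2 and 41.7 CPM in control. The groups did not overlap, with a log2 fold change of 1.28 (SE 0.37, edgeR adjusted p = 0.0342) that became 0.56 without AE knockdown 3. ARSA, the arylsulfatase of sulfatide, was at 22.1, 15.4 and 41.0 CPM in AE knockdown and 13.5, 12.5 and 11.0 CPM in control (log2 fold change 1.08, edgeR adjusted p = 0.0432). GLB1, the lysosomal beta-galactosidase, was the most abundant of the 5 at 395, 291 and 605 CPM in AE knockdown, against 268, 266 and 227 CPM in control (log2 fold change 0.76, edgeR adjusted p = 0.0447).

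The other 9 tested genes of this class were not called, with log2 fold changes of -0.032 to 1.24, of which 8 were above 0. FUCA1, the fucosidase, had the largest of these. It reached 15.7, 10.7 and 39.1 CPM in AE knockdown and 9.07, 9.50 and 9.15 CPM in control, and its groups did not overlap (edgeR adjusted p = 0.0629). ARSB, which desulfates dermatan sulfate, had a log2 fold change of 0.91 (adjusted p = 0.0646 in edgeR), and AE knockdown 2 lay below the controls. The enzymes that take apart heparan sulfate gave log2 fold changes of 0.79 for IDS, 0.57 for IDUA, 0.84 for SGSH and 0.13 for NAGLU, none of them called. SGSH showed how far a single library could set a value: it stood at 1.72, 2.18 and 15.8 CPM in AE knockdown, against 4.17, 4.07 and 2.65 CPM in control. AE knockdown 1 and 2 were below all controls and AE knockdown 3 above them, and without AE knockdown 3 the log2 fold change was -0.91 (edgeR adjusted p = 0.0544). GUSB, the beta-glucuronidase, had a log2 fold change of 0.58 with groups that did not overlap. MAN2B1, an alpha-mannosidase, and GAA, which digests glycogen, gave 0.15 and -0.032. NEU1, the sialidase, was not tested.

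Of the 7 genes of lipid enzymes and their helpers, 5 were called higher, with a median log2 fold change of 0.93 and all 7 above 0. PSAP, the precursor of the saposins that present sphingolipids to their hydrolases, rose the most in absolute terms. Its level was 1131, 796 and 2085 CPM in AE knockdown, against 503, 516 and 464 CPM in control. The AE libraries were far apart from one another, but the lowest still exceeded the highest control (log2 fold change 1.44, SE 0.29, edgeR adjusted p = 0.00898). SMPD1, the acid sphingomyelinase, was scarce at 8.44, 8.77 and 25.6 CPM in AE knockdown and 4.01, 4.07 and 3.65 CPM in control. AE knockdown 1 and 2 were alike and AE knockdown 3 stood apart, so that its log2 fold change of 1.86 (SE 0.39, edgeR adjusted p = 0.0102) was 1.12 without AE knockdown 3. ASAH1, the acid ceramidase that acts on the product of SMPD1, gave 235, 169 and 284 CPM in AE knockdown and 124, 125 and 113 CPM in control (log2 fold change 0.93, SE 0.21, edgeR adjusted p = 0.0139). PPT1, the thioesterase that removes palmitate from proteins, gave 558, 423 and 555 CPM in AE knockdown and 331, 336 and 312 CPM in control. AE knockdown 1 and 3 were nearly equal and all AE libraries exceeded the controls (log2 fold change 0.65, SE 0.17, edgeR adjusted p = 0.0218). In GENCODE 29 23.4% of the exonic bases of PPT1 overlap CAP1 on the opposite strand, and the strand setting of the counting was not given in the sources used here. CAP1 had a log2 fold change of -0.49 (edgeR adjusted p = 0.0629), opposite in sign to that of PPT1. GRN, which encodes the lysosomal glycoprotein progranulin, had 270.0, 211 and 540.1 CPM in AE knockdown and 191, 185 and 139 CPM in control (log2 fold change 0.99, edgeR adjusted p = 0.0386). The acid lipase gene LIPA and the GM2 activator gene GM2A missed the threshold, with log2 fold changes of 0.75 and 0.74 and edgeR adjusted p of 0.0545 and 0.12.

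**Figure D3:**
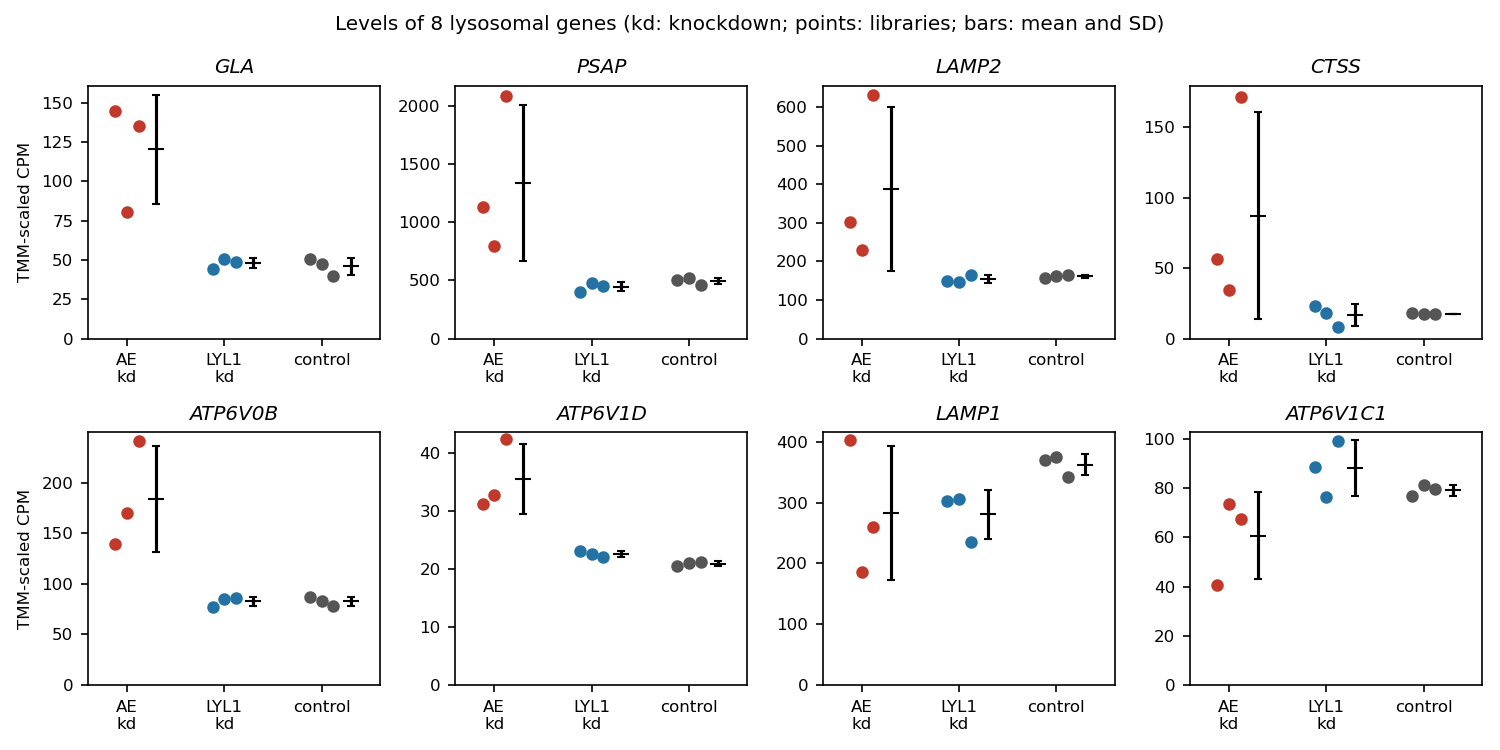
Points give the TMM-scaled CPM of 8 lysosomal genes in each of the 3 libraries of AE knockdown, LYL1 knockdown and control, and bars give the mean and SD (n = 3 per group). GLA, PSAP, LAMP2, CTSS, ATP6V0B and ATP6V1D lie higher in all 3 AE libraries than in any control library, while LAMP1 overlaps between AE knockdown and control and ATP6V1C1 lies lower in AE knockdown.

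Of the 9 proteases, 1 was called higher (11.1%, against 11.1% of all genes), and the median log2 fold change was 0.56. The called gene was CTSS, a cysteine cathepsin known from antigen-presenting cells, and it had the largest fold change of the 52 tested genes. CTSS stood at 56.1, 34.4 and 171 CPM in AE knockdown, against 17.8, 17.3 and 17.4 CPM in control. AE knockdown 3 was several times the other AE libraries, which were themselves above the tight control group. The log2 fold change of 2.31 (SE 0.55, edgeR adjusted p = 0.0171) became 1.36 without AE knockdown 3 (edgeR adjusted p = 0.0322). The abundant cysteine cathepsin genes CTSB, CTSC and CTSZ had log2 fold changes of -0.22, -0.06 and -0.13, with adjusted p of 0.187 or more. CTSC activates the serine proteases of myeloid granules. CTSH was the lowest of the 9 in log2 fold change. It gave 3.47, 6.10 and 3.80 CPM in AE knockdown and 6.72, 6.97 and 7.35 CPM in control, groups that did not overlap (log2 fold change -0.65, edgeR adjusted p = 0.0707, DESeq2 adjusted p = 0.0313). The aspartic protease gene CTSD, the tripeptidyl peptidase gene TPP1 and CTSA, whose product protects beta-galactosidase and sialidase from degradation, had log2 fold changes of 0.59, 0.58 and 0.56. For CTSA the highest libraries were AE knockdown 1 and 2, at 216, 181 and 90.1 CPM in AE knockdown against 120.0, 117 and 93.3 CPM in control. AE knockdown 3, the highest AE library for 39 of the 52 genes, was here below all 3 controls. CTSL was at 1.19 ± 0.764 CPM in AE knockdown and 0.598 ± 0.1 CPM in control (SD, n = 3 each), with few counts behind either value.

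Of the 8 membrane protein genes tested, 3 were called higher (median log2 fold change 0.52). The pair of major membrane glycoproteins parted. LAMP2, which also serves as the receptor of chaperone-mediated autophagy through its LAMP2A isoform, had 303, 230.1 and 631 CPM in AE knockdown, against 158, 161 and 165 CPM in control. All AE libraries were above all controls (log2 fold change 1.26, SE 0.30, edgeR adjusted p = 0.0168). LAMP1 had 404, 187 and 259 CPM in AE knockdown and 369.8, 375 and 343 CPM in control. AE knockdown 1 was above the controls and AE knockdown 2 and 3 below them (log2 fold change -0.36, SE 0.24, edgeR adjusted p = 0.304). CD63, a tetraspanin of late endosomes and lysosomes, gave 238, 198 and 402 CPM in AE knockdown and 161, 169 and 171 CPM in control (log2 fold change 0.74, edgeR adjusted p = 0.0382). SCARB2, the LIMP-2 receptor that carries glucocerebrosidase to the lysosome, rose by the smallest called amount, with 47.1, 38.5 and 42.6 CPM in AE knockdown and 28.0, 31.8 and 30.1 CPM in control (log2 fold change 0.51, SE 0.14, edgeR adjusted p = 0.0298). Here the AE libraries were close together and AE knockdown 3 was not the highest. MCOLN1, the calcium channel TRPML1, had a log2 fold change of -0.0075 (SE 0.20), and LAPTM4A and LAPTM4B had 0.52 and -0.26. CLN3, the gene of juvenile Batten disease, was at 0.501, 0.528 and 1.92 CPM in AE knockdown and 0.283, 0.415 and 0.126 CPM in control (edgeR adjusted p = 0.0675). CD68 had 5 counts over all 9 libraries and was not tested. In GENCODE 29 81.7% of its exonic bases lie in another gene on the same strand. The treatment of reads in such overlaps was not given in the sources used here. Overlap was not confined to genes with few counts: CTSD has 41.7% on the same strand and had 31147 counts over all libraries. IDS, MAN2B1, NAGLU and TPP1 have same-strand overlaps of 11.6% to 16.5%. The part of overlap in the counts was not tested.

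In the V1 sector of the proton pump, the ATP-burning part, the median log2 fold change was 0.22. Of its 8 genes, 1 was called higher (12.5%, against 11.1% of all genes). That gene was ATP6V1D, a subunit of the central rotor, at 31.3, 32.9 and 42.5 CPM in AE knockdown, against 20.5, 21.0 and 21.3 CPM in control. The AE libraries were close together and clear of the controls (log2 fold change 0.76, SE 0.15, edgeR adjusted p = 0.00763). The catalytic hexamer genes ATP6V1A and ATP6V1B2 had log2 fold changes of 0.40 (edgeR adjusted p = 0.0951) and 0.14 (edgeR adjusted p = 0.494). ATP6V1C1, a stator subunit, was the only V1 gene with a negative value, at 40.7, 73.8 and 67.7 CPM in AE knockdown and 76.7, 81.2 and 79.6 CPM in control. All AE libraries were below the controls, but the difference was not called (log2 fold change -0.38, edgeR adjusted p = 0.19). The stalk subunit genes ATP6V1E1 and ATP6V1G1, the rotor gene ATP6V1F and the regulatory subunit gene ATP6V1H lay between 0.12 and 0.27.

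In the V0 sector and its accessory subunits, 3 of the 4 tested genes were called, with a median log2 fold change of 1.01. ATP6V0B, a proteolipid of the proton-carrying ring, had 139, 170.0 and 241 CPM in AE knockdown, against 87.1, 83.3 and 78.2 CPM in control. The groups were widely separated, and here AE knockdown 1 was the lowest of the AE libraries (log2 fold change 1.15, SE 0.18, edgeR adjusted p = 0.00432). ATP6V0D1, which joins the ring to the rotor, had 102, 113 and 177 CPM in AE knockdown and 61.4, 62.4 and 51.8 CPM in control (log2 fold change 1.16, SE 0.24, edgeR adjusted p = 0.01). ATP6AP2, the accessory subunit also called the prorenin receptor, had 159, 148 and 295 CPM in AE knockdown and 107, 106 and 114 CPM in control (log2 fold change 0.88, SE 0.23, edgeR adjusted p = 0.0251). Those 3 genes were higher in every AE library than in any control. The accessory subunit gene ATP6AP1 was not called, at 99.6, 70.4 and 202 CPM in AE knockdown and 93.0, 101 and 81.2 CPM in control. AE knockdown 2 was below the controls, and the log2 fold change of 0.43 was -0.12 without AE knockdown 3. ATP6V0C, the main ring proteolipid, had 12 counts over all libraries and was not tested. Of its exonic bases 57.5% overlap another gene on the same strand in GENCODE 29. The difference between the V0 and V1 genes was not tested.

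The MiT factors themselves were not called. TFEB was barely read, at 0.536, 0.493 and 1.54 CPM in AE knockdown, 0.883, 0.387 and 0.249 CPM in LYL1 knockdown and 0.648, 0.452 and 0.546 CPM in control. AE knockdown 3 stood above the controls and AE knockdown 1 and 2 within their range (log2 fold change 0.61, SE 0.55, edgeR adjusted p = 0.453). TFE3 was the MiT factor with the most RNA, at 23.4, 24.8 and 30.3 CPM in AE knockdown, 34.2, 23.3 and 25.6 CPM in LYL1 knockdown and 26.9, 23.6 and 22.3 CPM in control. The groups overlapped (log2 fold change 0.11, SE 0.18, edgeR adjusted p = 0.69). MITF was at or below 0.162 CPM in every AE and control library and was not tested. Their activity is set largely by where the protein is in the cell, which RNA counts do not measure.

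The promoters of the pump and membrane genes are shown for the E-box of the MiT factors, through which these factors are known to act. RefSeq windows from 250 bases before to 50 after each transcription start (GRCh38.p14, a newer build than the hg19 of the counts) were at hand for 41 of the 56 genes, 59 windows in all. The motif TCACGTG, read on both strands (its reverse complement is CACGTGA, and every match also holds CACGTG), was found in 11 of the 41 genes (26.8%), against 4.49% of all 27305 genes with windows. The shorter CACGTG was found in 12 of the 41 (29.3%, against 8.78% of all genes) and CATGTG in 10 (24.4%, against 13.4%). The RUNX motif TGTGGT was found in 4 (9.76%, against 15.6% of all genes). Of the 11 genes called higher in AE knockdown that had a window, 2 held TCACGTG, ATP6V0B and ATP6V0D1, both V0 genes. The other 9 holders were ARSB, ATP6V1G1, CLN3, CTSA, CTSD, GAA, LAMP1, MCOLN1 and NEU1, of which NEU1 was not tested and the others were not called. Genes that were not called also held more than 1 copy, among them LAMP1, MCOLN1, GAA and CLN3. A match is only a run of letters in this window and says nothing of binding. The window of ATP6V0B (chr1:43974710-43975009, plus strand, 5′ to 3′) is given whole, as the called gene with 2 copies, with TCACGTG in capitals.
ATP6V0B: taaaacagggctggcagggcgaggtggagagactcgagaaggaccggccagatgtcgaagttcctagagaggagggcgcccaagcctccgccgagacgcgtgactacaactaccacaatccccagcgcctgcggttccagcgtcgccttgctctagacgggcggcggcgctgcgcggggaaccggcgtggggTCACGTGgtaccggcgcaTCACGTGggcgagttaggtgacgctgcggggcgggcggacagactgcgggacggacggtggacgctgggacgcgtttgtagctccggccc
The 37-base stretches around the motif in ATP6V0D1 (chr16:67481196-67481232, minus strand), which was called, and in LAMP1 (chr13:113297195-113297231, plus strand), MCOLN1 (chr19:7522567-7522603, plus strand) and GAA (chr17:80101489-80101525, plus strand), which were not, are shown side by side for the letters around the motif. For each gene 1 stretch is shown, though LAMP1, MCOLN1 and GAA hold further copies. Capitals mark the motif, and the longer run of capitals is a match on both strands.
ATP6V0D1: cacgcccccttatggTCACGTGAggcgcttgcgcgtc
LAMP1: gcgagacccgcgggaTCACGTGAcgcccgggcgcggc
MCOLN1: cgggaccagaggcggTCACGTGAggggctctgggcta
GAA: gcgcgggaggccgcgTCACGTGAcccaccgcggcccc
The window of GLA (chrX:101407876-101408175, minus strand), the gene with the smallest adjusted p of the 52, held none of the 4 motifs and is given for contrast.
GLA: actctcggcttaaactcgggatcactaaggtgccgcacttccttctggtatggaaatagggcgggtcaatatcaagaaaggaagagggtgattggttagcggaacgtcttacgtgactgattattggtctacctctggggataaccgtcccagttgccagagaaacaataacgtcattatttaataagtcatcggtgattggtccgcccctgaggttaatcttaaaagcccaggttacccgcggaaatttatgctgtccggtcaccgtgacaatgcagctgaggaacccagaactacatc

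Levels per length put the genes in order. CPM per kilobase of the principal GENCODE 29 transcript (RPKM) had a median of 33.0 over the 52 tested genes in control, with 10 genes above 100 and 4 below 1. In control the highest were CTSZ (237 RPKM), LAPTM4B (187 RPKM), CTSC (184 RPKM) and PSAP (172 RPKM), and the lowest were CLN3 (0.071 RPKM), TFEB (0.233 RPKM) and CTSL (0.275 RPKM). Of the exonic bases of CLN3, 25.2% overlap another gene on the same strand in GENCODE 29, and how reads in such overlaps were counted is not given. In AE knockdown PSAP was the highest at 466 RPKM, against 172 RPKM in control, and CD63 stood at 227 RPKM in AE knockdown and 136 RPKM in control. The most abundant cathepsin genes were among those not called. Of the called genes, PSAP, CD63 (136 RPKM), GLB1 (97.1 RPKM) and PPT1 (81.4 RPKM) had the most RNA per length in control. The spread within the AE group was wide: relative to the mean, the SD over libraries was larger in AE knockdown than in control for all 52 tested genes. This was not particular to them. Pairs of libraries were compared by chi-square per degree of freedom over all genes with at least 20 counts in the pair. It was 71.7 to 163 within AE knockdown, 37.9 to 63.45 within LYL1 knockdown and 3.62 to 14.7 within control.

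Knockdown of LYL1 gave no call among the 52 genes, by edgeR, DESeq2 or limma-voom, where 0.0136% of all genes (2 genes, 0.00678% in each direction) were called by edgeR. At an unadjusted p below 0.05 there were 2 higher and 1 lower of the 52, beside 2.65% and 2.01% of all genes. The median log2 fold change was -0.014, beside 0.0055 over all genes. The 3 LYL1 libraries lay wholly above the controls for 5 genes and wholly below for 6, where 8.41% and 8.17% of all genes did so. The smallest adjusted p was that of SCARB2 (0.844), at 35.8, 43.2 and 46.5 CPM in LYL1 knockdown, against 28.0, 31.8 and 30.1 CPM in control. All LYL1 libraries exceeded all controls (log2 fold change 0.48, SE 0.14). GAA had the lowest value, at 152, 321 and 243 CPM in LYL1 knockdown and 429.7, 428 and 344 CPM in control. Its groups did not overlap, and the LYL1 libraries were far apart (log2 fold change -0.75, SE 0.26, edgeR adjusted p = 0.916). CTSL was at 0.998, 1.35 and 1.20 CPM in LYL1 knockdown and 0.486, 0.678 and 0.63 CPM in control, a log2 fold change of 0.98 (SE 0.44) on few counts. SMPD1 was at 7.02, 6.12 and 6.24 CPM in LYL1 knockdown, above its controls at 4.01, 4.07 and 3.65 CPM (log2 fold change 0.72, SE 0.38), and FUCA1 at 6.56, 3.37 and 6.93 CPM, below its controls at 9.07, 9.50 and 9.15 CPM (log2 fold change -0.72, SE 0.43). The 18 genes called in AE knockdown had log2 fold changes of -0.19 to 0.72 in LYL1 knockdown, 8 of them above 0. LYL1 itself was called lower in this comparison by DESeq2 only, of the 3 tools. In the LYL1 files 5 gene names lack a decimal suffix that they carry in the AE and control files, and whether all files came from a single counting run is not given in the sources used here. The median SE of a log2 fold change was 0.23 over all genes. SCARB2 shows the difference in threshold: 0.48 ± 0.14 (SE) had an edgeR adjusted p of 0.844 in LYL1 knockdown, and 0.51 ± 0.14 one of 0.0298 in AE knockdown. Both comparisons use the same control libraries.

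**Figure D4:**
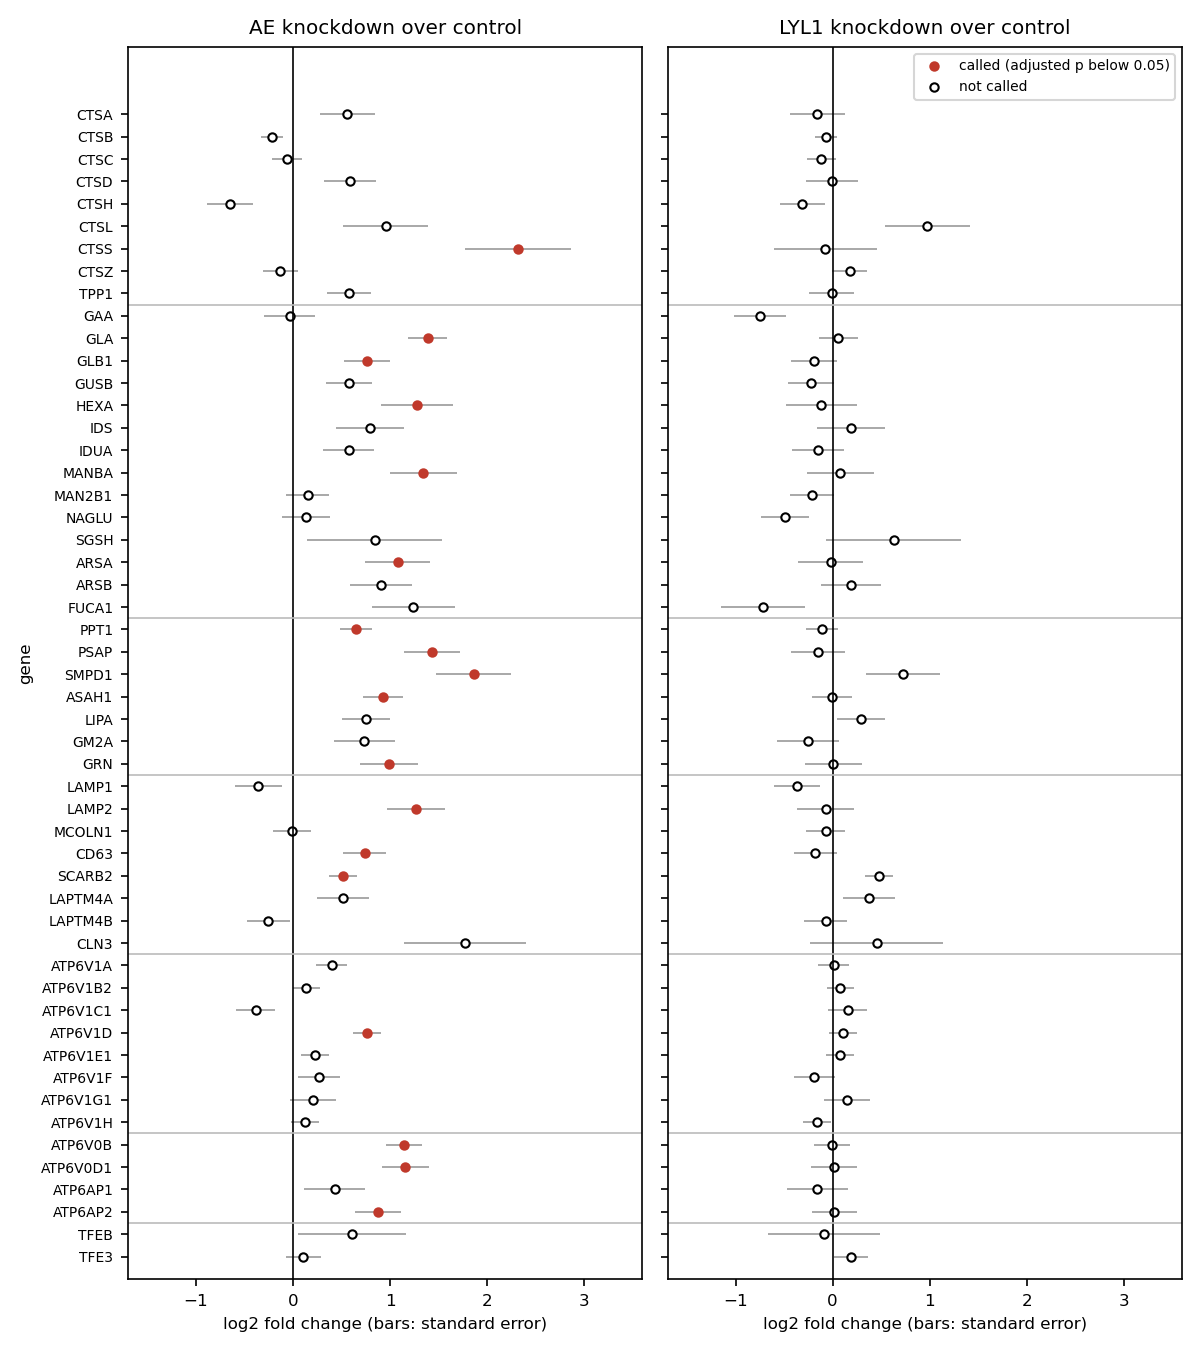
The log2 fold change of each of the 52 tested lysosomal genes is drawn with its standard error, for AE knockdown over control on the left and LYL1 knockdown over control on the right. Filled points are called at an adjusted p below 0.05 (18 on the left, 0 on the right), grey lines part the role classes, and the points on the right gather around 0 apart from a few such as CTSL, SMPD1, GAA and FUCA1.

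Set directly against each other, the knockdowns differed. In AE knockdown against LYL1 knockdown, 18 of the 52 genes were called higher and 0 lower by edgeR, where 20% of all genes were called, 10.5% higher and 9.46% lower. The groups did not overlap for 20 genes that were higher (38.5%, against 18.2% of all genes) and 2 that were lower (against 17.2% of all genes). At an unadjusted p below 0.05, 27 were higher and 1 lower, beside 18.9% and 17.1% of all genes, and DESeq2 and limma-voom also called 0 lower. The median log2 fold change was 0.64, beside 0.028 over all genes. The smallest adjusted p were those of GLA and ATP6V0B. GLA was at 145, 80.7 and 135 CPM in AE knockdown, against 44.2, 50.7 and 48.9 CPM in LYL1 knockdown (log2 fold change 1.33, SE 0.20, edgeR adjusted p = 0.00407). ATP6V0B was at 139, 170.0 and 241 CPM in AE knockdown and 76.9, 85.0 and 85.6 CPM in LYL1 knockdown (log2 fold change 1.15, SE 0.18, edgeR adjusted p = 0.0043). For both, the lowest AE library was well above the highest LYL1 library. PSAP differed by 1.59 on the log2 scale (edgeR adjusted p = 0.00656), CTSS by 2.39 (edgeR adjusted p = 0.0158) and LAMP2 by 1.34 (edgeR adjusted p = 0.0139). FUCA1, which was not called against control, was called here, at 15.7, 10.7 and 39.1 CPM in AE knockdown and 6.56, 3.37 and 6.93 CPM in LYL1 knockdown (log2 fold change 1.96, edgeR adjusted p = 0.0145). GUSB was likewise called here (log2 fold change 0.80, edgeR adjusted p = 0.0377), with LYL1 libraries below the controls. SCARB2 and SMPD1, called in AE knockdown against control, were not called here, with log2 fold changes of 0.033 (edgeR adjusted p = 0.892) and 1.14 (edgeR adjusted p = 0.0546). For SCARB2 the AE and LYL1 libraries covered the same range. With only the 6 libraries of this comparison in the fit, 4 genes were called, beside 2.86% of all genes called higher. With all groups in the fit, 28 were called higher without AE knockdown 2 (beside 13.8% of all genes), and 10, 11 and 10 without LYL1 knockdown 538, 540 or 542 (beside 5.78%, 6.31% and 4.03%).

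A wider list of 105 other lysosomal genes, of which 93 were tested, held calls in both directions in AE knockdown against control: 23 were called higher (24.7%, against 11.1% of all genes) and 5 lower (5.38%, against 10.2%), with a median log2 fold change of 0.36. Without AE knockdown 3 these counts were 15 and 3, beside 7.33% and 9.05% of all genes. Without control 1, 2 or 3 the higher counts were 5, 6 and 5, beside 2.98%, 2.5% and 2.6% of all genes, and the lower counts 3, 2 and 3, beside 3.71%, 3.25% and 3.62%. Among 25 other hydrolase genes, 6 were higher (24%) and 2 lower (8%). HPSE, the heparanase, fell most, to 0.179, 1.20 and 0.337 CPM in AE knockdown, against 7.00, 7.20 and 4.75 CPM in control (log2 fold change -3.43, edgeR adjusted p = 0.00377), and CTSV, a cysteine cathepsin, fell by 1.17 on the log2 scale (edgeR adjusted p = 0.0112). Every AE library was below every control for both. PLA2G15, the lysosomal phospholipase, rose (log2 fold change 0.88, edgeR adjusted p = 0.0134). Among 22 other membrane proteins and transporters, 4 were higher and 0 lower, and NPC2, the soluble carrier that hands cholesterol to the membrane, was counted with them. It had 45.6, 35.5 and 98.2 CPM in AE knockdown, against 18.9, 18.1 and 17.4 CPM in control (log2 fold change 1.72, edgeR adjusted p = 0.00664). LAPTM5, a membrane protein of blood cells, had a log2 fold change of 3.82 and the sialic acid exporter gene SLC17A5 of 0.94 (edgeR adjusted p of 0.00417 and 0.0111). Of 13 other pump subunits and assembly factors, 1 was called higher (7.69%, against 11.1% of all genes). This gene was TCIRG1, the a3 subunit of the V0 sector. It stood at 34.3, 29.0 and 26.4 CPM in AE knockdown and 17.9, 16.2 and 15.7 CPM in control (log2 fold change 0.85, edgeR adjusted p = 0.0264). Unlike most of the called genes, it was highest in AE knockdown 1.

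The receptors that deliver enzymes to the lysosome by their mannose 6-phosphate tag went opposite ways. M6PR, the small cation-dependent receptor, was at 275, 228 and 259 CPM in AE knockdown, against 164, 168 and 178 CPM in control (log2 fold change 0.58, edgeR adjusted p = 0.0246). IGF2R, the large cation-independent receptor, was at 45.7, 39.4 and 32.9 CPM in AE knockdown and 66.1, 70.8 and 64.1 CPM in control (log2 fold change -0.77, edgeR adjusted p = 0.0385), and was not called without AE knockdown 3 (edgeR adjusted p = 0.0941). The groups overlapped for neither gene, and no other of the 13 sorting genes was called. The share called was thus 7.69% in each direction, against 11.1% of all genes higher and 10.2% lower.

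Of the 16 tested genes that tie the lysosome to mTORC1, 9 were called higher (56.3%, against 11.1% of all genes) and 2 lower, a share of 12.5% that is near the 10.2% of all genes. Without AE knockdown 3 the counts were 5 and 1, beside 7.33% and 9.05% of all genes. Without control 1, 2 or 3 the higher count was 1, 1 and 2, beside 2.98%, 2.5% and 2.6% of all genes. The lower count was 1 each time, beside 3.71%, 3.25% and 3.62%. All 5 subunits of Ragulator, the scaffold that anchors mTORC1 signalling to the lysosomal membrane, were higher. LAMTOR1, its membrane anchor, was at 105, 113 and 169 CPM in AE knockdown, against 61.1, 58.7 and 46.7 CPM in control (log2 fold change 1.22, edgeR adjusted p = 0.00673). LAMTOR2, LAMTOR3, LAMTOR4 and LAMTOR5 had log2 fold changes of 0.59, 0.58, 0.68 and 0.47. Without AE knockdown 3, LAMTOR2 and LAMTOR5 lost their call (edgeR adjusted p of 0.0663 and 0.0918) and LAMTOR4 stood at 0.44 (edgeR adjusted p = 0.0499). The Rag GTPase genes RRAGB, RRAGC and RRAGD and FLCN, the folliculin gene, were also higher, with 0.82, 0.57, 1.07 and 0.85. Without AE knockdown 3, RRAGC and FLCN lost their call (edgeR adjusted p of 0.0769 and 0.0846), and FLCN stood at 0.50. The lower genes were the mTORC1 subunits RPTOR and MLST8. RPTOR, the scaffold that defines mTORC1, was at 118, 82.5 and 62.1 CPM in AE knockdown, against 274, 277 and 234 CPM in control. The highest AE library was far below the lowest control (log2 fold change -1.58, SE 0.21, edgeR adjusted p = 0.00213). MLST8 gave -0.63 (edgeR adjusted p = 0.0389), and was not called without AE knockdown 3 (edgeR adjusted p = 0.0715). Of the 4 cathepsin inhibitor genes, CST7, the cystatin F of blood cells, had 65.5, 4.93 and 49.3 CPM in AE knockdown and 2.02, 2.00 and 1.60 CPM in control (log2 fold change 4.41, edgeR adjusted p = 0.00603), and CSTA had 1.67 (edgeR adjusted p = 0.042), which was 0.76 and not called without AE knockdown 3 (edgeR adjusted p = 0.135). For CST7 the AE libraries were far apart, and AE knockdown 2 was the lowest but still above the controls. No gene of the wider list was called in LYL1 knockdown against control. There 5 of the 93 had an edgeR unadjusted p below 0.05 in either direction, beside 2.65% of all genes higher and 2.01% lower.

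**Figure D5:**
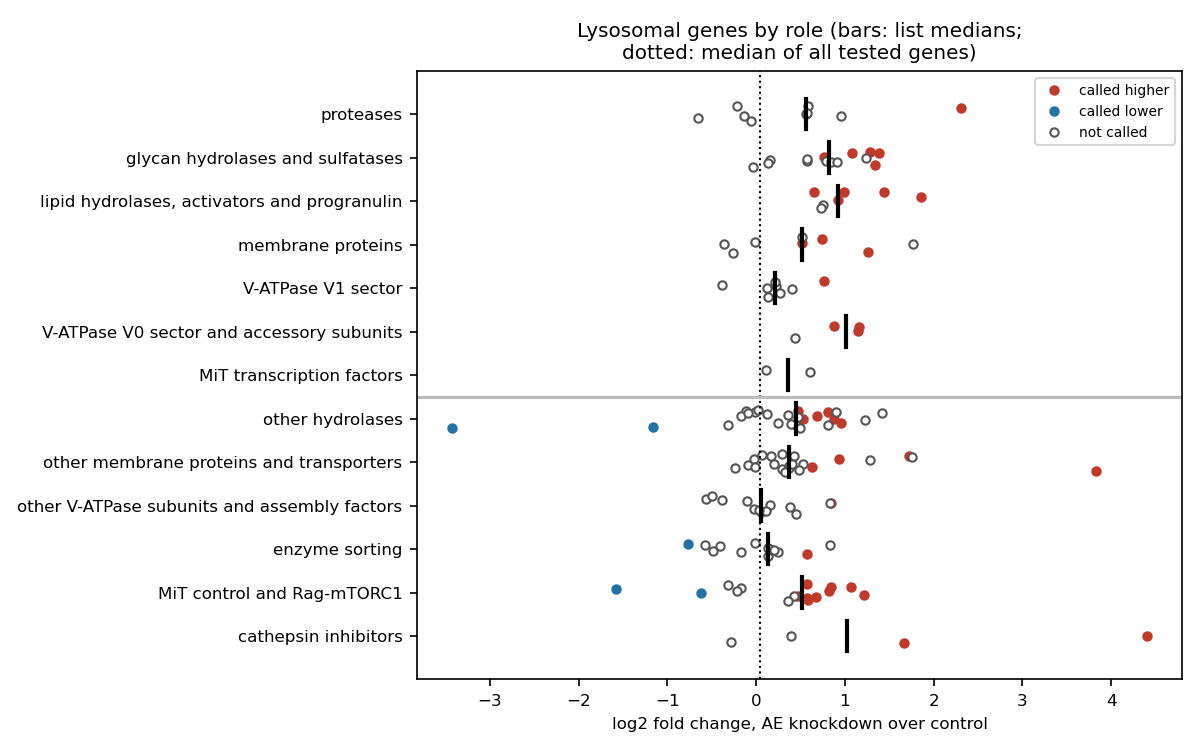
Each point is the log2 fold change of a tested lysosomal gene, AE knockdown over control, by role. The upper 7 rows hold the 52 genes of the main list and the lower 6 rows the 93 other lysosomal genes; black bars are list medians and the dotted line is the median of all tested genes (0.048). The lipid enzymes and the V0 sector have medians of 0.93 and 1.01, the V1 sector of 0.22, and the genes called lower all lie in the lower rows.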

How the data were processed

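RNA was sequenced in 9 Kasumi-1 libraries, 3 per group. The deposited files hold 1 raw count per gene symbol, a whole number that was not normalised. The submitters' processing notes name hg19 as the build and list the tools DESeq2 1.26.0, featureCounts 2.0.1, HISAT2 2.2.0, SAMtools 1.7 and fastp 0.20.1 without their roles; annotation, strand setting and multi-mapping are not given in the sources used here. Overlapping genes and near-identical copies are therefore uncertain. In the 6 AE and control files, 5 names carried a decimal suffix, which was removed; the LYL1 files lack it, and whether they were counted in the same run is not given in the sources used here.

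Counts were scaled by TMM, filtered with filterByExpr by group, and tested with edgeR 4.0.16 (quasi-likelihood, robust, R 4.3.3), with a mean per group fitted to all 9 libraries. Adjustment was by Benjamini-Hochberg over 14741 genes, with calls below 0.05. The standard error is the log2 fold change over the square root of F, with a prior count of 0.125. Alternatives were other scalings and filters, DESeq2 1.42.0, limma-voom (limma 3.58.1), non-robust dispersions, 6-library fits, an adjusted p below 0.01, the replicate number as a block, and the omission of single libraries.

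The lysosomal genes, the other lists and the markers were chosen with earlier results of these data known. Values per library are given for the MiT factors, LAMP1, LAMP2, up to 4 called genes per role with the smallest adjusted p, up to 3 per wider list, and the knockdown targets. Other genes given with values (among them SGSH, CTSA, CTSH, CTSL, CLN3, ATP6V1C1, ATP6AP1, GAA, SMPD1 and SCARB2 in LYL1 knockdown, the other Ragulator and Rag genes, FLCN and MLST8) were picked after their values were seen. Transcript lengths and exon overlaps come from GENCODE 29 and promoter windows from RefSeq, both GRCh38, so no gene coordinates in hg19 are given.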

Additional observations from a re-analysis of the deposited data

Results flagged for a closer look

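NEU1, the lysosomal sialidase, was removed by the low-count filter and so was not tested in the reported fits; with no filter it was called higher in LYL1 knockdown. It had 215 counts in LYL1 knockdown 542 and none in the other LYL1 libraries or in control, and no more than 1 count in an AE library. MITF, also removed by the filter, had 8 counts in LYL1 knockdown 542, more than in any control library. Both stand out against the control libraries in a single library of 3, so neither is a value of the group.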

How the results depend on the processing

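Scaling (median of ratios, upper quartile or library size only), a strict filter (at least 50 counts in 3 libraries) and non-robust dispersions left every count of called lysosomal genes within 1.5 times its reported value. Of the 18 genes called higher in AE knockdown against control, all kept their sign in every fit run. At an adjusted p below 0.01 the count was 4, beside 2.39% of all genes called higher. In AE knockdown against LYL1 knockdown it was 3, beside 2.33% of all genes. There no low-count filter gave 28 (beside 6.37%), and only the 6 libraries compared gave 4 (beside 2.86%). In AE knockdown against control the wider list gave 4 higher and 2 lower at 0.01, beside 2.39% and 2.68% of all genes. With no filter it gave 8 lower, beside 6.8% of all genes. Of the 52 genes, DESeq2 called 1 lower in AE knockdown against control (CTSH), beside 13.4% of all genes. With no filter, 1 of the 56 genes was called higher (NEU1) and 1 lower (GAA) in LYL1 knockdown, beside 0.265% and 0.164% of all genes. In AE against LYL1 knockdown 2 were called lower, beside 6.43% of all genes.

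The labels do not say whether equal AE and control numbers mark paired libraries. The correlation of deviations between same-numbered libraries was 0.042, -0.014 and 0.0068, and that between differently numbered ones ran from -0.047 to 0.0317. With 3 libraries per group, and the AE libraries far more spread than the controls, these values cannot settle whether the libraries are paired. With the number as a replicate block, fitted on 6 libraries, 9 genes and 8 of the wider list were called higher, beside 4.52% of all genes. The same 6 libraries without the block gave 13 genes, 12 of them among the 18, beside 9% of all genes.

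Leaving out each library in turn gave 4 (without control 3) to 30 (without AE knockdown 2) genes higher in AE knockdown against control. The shares of all genes were 2.6% and 14.8%. These fits gave 0 to 1 lower (LAMP1 without AE knockdown 1, CTSH without AE knockdown 2), beside 9.52% and 12.7% of all genes. In AE against LYL1 knockdown these fits gave 10 (without LYL1 knockdown 538 or 542) to 28 (without AE knockdown 2) higher. The shares of all genes were 5.78%, 4.03% and 13.8%. They gave 0 to 2 lower, the 2 without AE knockdown 2, beside 12.3% of all genes. In AE knockdown against control the wider list gave 5 (without control 1 or 3) to 34 (without AE knockdown 2) higher. The shares of all genes were 2.98%, 2.6% and 14.8%. It gave 2 (without control 2) to 6 (without AE knockdown 1 or LYL1 knockdown 540) lower, beside 3.25%, 9.52% and 8.81% of all genes. The median log2 fold change in LYL1 knockdown ran from -0.079 (without control 3) to 0.0088. The sign turned for genes that were not called. The ranges of their log2 fold change in AE knockdown against control over these fits were -0.18 to 0.036 for CTSC, -0.26 to 0.13 for GAA, -0.0083 to 0.40 for MAN2B1, -0.23 to 0.33 for NAGLU, -0.91 to 1.29 for SGSH, -0.13 to 0.057 for MCOLN1, -0.0089 to 0.35 for ATP6V1G1, -0.12 to 0.71 for ATP6AP1, -0.10 to 0.89 for TFEB and -0.023 to 0.18 for TFE3. Upper-quartile scaling gave 0.020 for GAA and 0.041 for MCOLN1. For MAN2B1, NAGLU, SGSH, ATP6V1G1, ATP6AP1, TFEB and TFE3 the lower end came without AE knockdown 3. The causes of these changes were not tested.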
